A study of Arabidopsis thaliana with 6 samples.

Results

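The 62 genes described here had at least 5 RPKM (the read count of a gene divided by its length and by the depth of the library) in at least 1 Col-0 library and at most 0.2 RPKM in all 3 Can-0 libraries. They were taken from 28775 features of Arabidopsis thaliana. A further 5 genes that meet both thresholds, the root P450 genes CYP705A5 and CYP708A2, the aquaporin PIP1;4, the flowering repressor MAF3 and the immune receptor RPM1, were left out by name. Of the 17359 features with at least 5 RPKM in a Col-0 library, 0.386% met the Can-0 ceiling. The choice used all 6 values of every gene, so the difference between the accessions in these genes is a description and was not tested.

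Natural accessions of Arabidopsis differ from the reference genome by deletions, by tandem duplications and by stretches of diverged sequence. Such differences are known to be frequent in gene families that stand in tandem arrays, among them nucleotide-binding immune receptors, cytochromes P450, terpenoid synthases and small secreted cysteine-rich peptides. Where reads are assigned to reference gene models, a gene that an accession lacks, a gene that is silent and a gene whose reads are too diverged to be assigned all yield few or no reads, and the values here cannot tell these apart.

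Polyadenylated RNA was sequenced from the accession Col-0, whose genome is the Arabidopsis reference, and from the accession Can-0. Seedlings were taken from soil at 11 days, roots from plates at 10 days, and floral buds from soil at stage 12, all under 16 hours of light and 8 hours of dark at 20 C. There was 1 library for each accession and tissue, 6 in all, so a difference within a tissue has no replicate check, and the labels do not say how many plants a library holds. By their labels, the seedling libraries shared run 33 and the root libraries run 40, whereas the Col-0 floral bud library was in run 36 and the Can-0 one in run 35.

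The step between small RPKM values put the libraries at about 21750000 to 22870000 mapped reads each, so 3 reads on a transcript of 1 kb correspond to 0.131 to 0.138 RPKM. Reads per gene are estimates, since they rest on the reference transcript lengths and the gene model lengths behind the RPKM are not given. The tissue labels matched their markers: the photosynthesis gene RBCS3B had 4472 and 3568 RPKM in the Col-0 and Can-0 seedlings and at most 0.309 in the roots, the endodermal gene CASP1 had 60.2 and 57.4 in the roots and at most 0.161 elsewhere, and the petal and stamen gene AP3 had 219 and 262 in the floral buds and at most 0.59 elsewhere.

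The 62 genes summed to 795, 858 and 625 RPKM in the Col-0 seedling, root and floral bud libraries, against 0.452, 1.15 and 0.782 in the same tissues of Can-0. In Can-0, 40 genes were listed at 0 in all 3 tissues, and 149 of the 186 Can-0 values were 0. The 37 values above 0 corresponded to a median of about 1.4 and at most about 12 estimated reads, the latter for the immune receptor gene AT4G19520 in seedling, but only 11 of the 37 came within 0.1 of a whole number. Over all 62 genes the estimated Can-0 reads came to 42.6 in root and to 22.3 in each of the other tissues. In their highest Col-0 library the same genes had 31.9 to 4884 estimated reads each. These figures are point estimates and cover neither counting error nor variation between plants. AT1G51270, AT1G58400 and GLP9 were the 3 genes with a value above 0 in every Can-0 tissue. The rule applied the other way round, to genes at or under 0.2 RPKM in all Col-0 libraries and at 5 or more in a Can-0 library, was met by 41 genes, 0.235% of 17416. No gene was left out of the 41 by name, so their like count is the 67 genes before the 5 were left out. The features are named by the Col-0 reference, so genes that Can-0 alone holds are outside the 41.

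**Figure D1:**
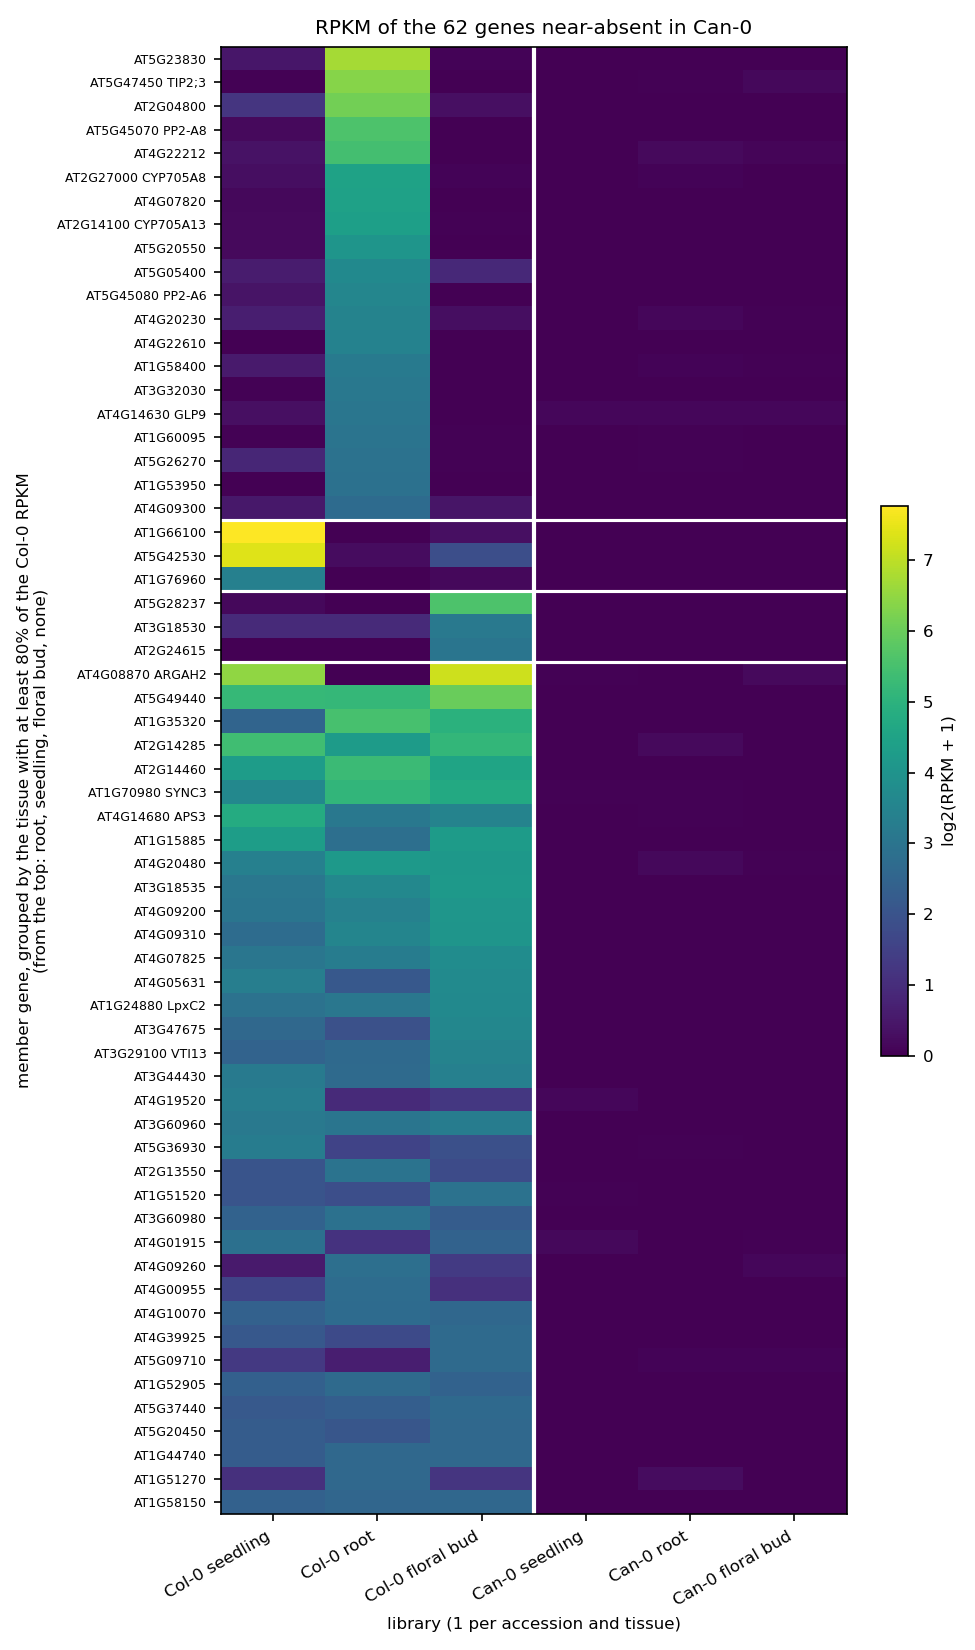
RPKM of each of the 62 genes in the 6 libraries, on a log2(RPKM + 1) colour scale, with genes in rows grouped by the tissue that holds at least 80% of the Col-0 RPKM and libraries in columns. The 3 Can-0 columns are at or near 0 throughout, as the choice of genes requires, while the Col-0 columns hold a block of 20 root genes at the top, 3 seedling genes, 3 floral bud genes and 36 genes read in more than 1 tissue.

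The heat map of RPKM by library shows that the tissue patterns in Col-0 fell into a root block and a broad block. A tissue that held at least 80% of a gene's summed Col-0 RPKM was root for 20 genes, seedling for 3 and floral bud for 3, while 36 genes had no such tissue. The share in the root class was 32.3%, compared with 7.6% of all 17359 features with at least 5 RPKM in Col-0 and 12.2% of the 41 genes near-absent in Col-0. The share in the floral bud class was 4.84%, compared with 6.36% and 17.1%. Genes that reached 1 RPKM in a single Col-0 tissue made up 38.7% of the 62, against 9.46% of all those features. A gene read in 1 tissue has to be low in only 1 Can-0 library to meet the rule, and a gene read in 3 tissues in all 3, so these shares are not comparable measures of loss. In whole organs, fewer cells of a type and less RNA per cell cannot be told apart.

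**Figure D2:**
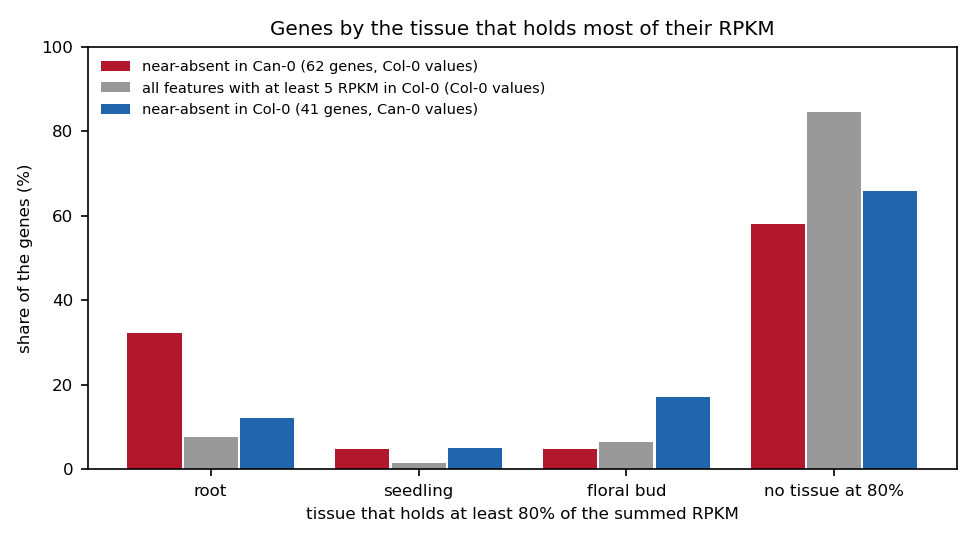
Share of genes, in percent, by the tissue that holds at least 80% of the summed RPKM, for the 62 genes near-absent in Can-0 (Col-0 values), all 17359 features with at least 5 RPKM in Col-0 (Col-0 values) and the 41 genes near-absent in Col-0 (Can-0 values). The root bar is 32.3% for the 62 genes, 7.6% for all features and 12.2% for the 41 genes.

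The bar plot of tissue classes sets these groups side by side. The root class was led by AT5G23830, which encodes a protein with an MD-2-related lipid recognition domain and had 0.398, 105 and 0.0563 RPKM in the seedling, root and floral bud of Col-0, the order used for all values below. TIP2;3, an aquaporin of the vacuolar membrane that passes water and ammonia, had 0.042, 81.5 and 0 RPKM in Col-0. In Can-0, TIP2;3 had 0, 0.0415 and 0.129 RPKM. These values correspond to about 1.1 estimated reads in root and 3.3 in floral bud, too few to rank the tissues. AT2G04800, a gene without an assigned function, had 1.32, 68.2 and 0.245 RPKM in the 3 Col-0 tissues and was listed at 0 in Can-0. Each of these genes was high in the Col-0 root alone. The phloem protein gene PP2-A8 had 0.157, 47.6 and 0 RPKM in Col-0, and the defensin-like peptide gene AT4G22212 had 0.304, 43.2 and 0. Both P450 genes were root genes: CYP705A8 had 0.232, 21.4 and 0.051 RPKM, and CYP705A13 had 0.153, 20.1 and 0.0252. AT4G07820, of the CAP superfamily of secreted proteins that includes PR-1, had 0.129, 20.9 and 0 RPKM. The remaining root genes had between 5.53 RPKM (AT4G09300) and 15.8 RPKM (the oxygenase-family gene AT5G20550) in the Col-0 root. They included the germin-like gene GLP9, at 7.27 RPKM, and the ubiquitin-like gene AT1G53950, at 6.44.

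The seedling class held the highest values of all. AT1G66100 encodes a thionin, a small antimicrobial peptide rich in cysteines, and had 218, 0 and 0.26 RPKM in Col-0. AT5G42530, which has no assigned function, had 169, 0.184 and 2.64 RPKM. Both were listed at 0 in all 3 Can-0 libraries, as was AT1G76960, with 9.56, 0 and 0.113 RPKM in Col-0. In the floral bud class, AT5G28237 (pyridoxal phosphate-dependent enzyme family) had 0.112, 0 and 48.1 RPKM, the ARM repeat gene AT3G18530 had 0.895, 0.894 and 7.83, and the defensin-like gene AT2G24615 had 0, 0 and 7.04. All 3 were listed at 0 in Can-0.

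Among the 36 genes with no dominant tissue, 14 had at least 5 RPKM in all 3 Col-0 tissues, and several belong to basic cell functions. ARGAH2, an arginase that splits arginine into ornithine and urea, had 88.4, 0 and 145 RPKM in Col-0 and 0.0315, 0 and 0.155 in Can-0. It was thus high in both shoot tissues and listed at 0 in the Col-0 root. SYNC3, an asparaginyl-tRNA synthetase, had 11.4, 33.5 and 25.6 RPKM in Col-0 and 0.0236, 0.0224 and 0 in Can-0. APS3, an ATP sulfurylase, which activates sulfate for assimilation, had 26.8, 7.62 and 10.1 RPKM in Col-0 and 0, 0.0267 and 0 in Can-0. VTI13, a v-SNARE of vacuolar membrane traffic, had 4.53, 5.24 and 10.1 RPKM, and LpxC2, a homologue of the deacetylase of bacterial lipid A synthesis, had 6.6, 7.5 and 12. Both were listed at 0 in Can-0. AT2G14285, a small nuclear ribonucleoprotein gene, had 41.3, 18.3 and 34.2 RPKM in Col-0 and 0.151 RPKM in the Can-0 root.

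Of the 16 genes without an assigned function, 12 had no dominant tissue, and a few were high. AT5G49440 had 36, 35.3 and 63.3 RPKM in the 3 Col-0 tissues, AT1G35320 had 4.69, 45 and 30.5, and AT2G14460 had 18.8, 38.2 and 22.1. All 3 were listed at 0 in Can-0. AT1G15885 reached 19 RPKM, and AT1G44740, AT1G52905, AT2G13550, AT3G44430, AT4G01915, AT4G05631, AT4G07825, AT4G09260 and AT5G26270 had their highest Col-0 values between 5.19 and 12.8 RPKM. Such genes made up 25.8% of the 62 and 5.59% of all features with at least 5 RPKM in Col-0. Coding sequences of at most 300 bases were found in 19.4% of the 62 and in 3.85% of all those features, and the median coding length was 822 against 1138 bases.

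Family membership was read from the product names of the reference annotation, and most families held few of the 62 genes. Immune receptors of the nucleotide-binding class, which detect pathogen molecules or their effects inside the cell, gave 4 genes among 92 with at least 5 RPKM in Col-0, or 4.35 per 100, beside 0.357 per 100 over all features. AT4G19520 had 8.82, 0.881 and 1.39 RPKM in Col-0, AT5G36930 had 8.7, 1.95 and 2.77, AT5G05400 had 0.505, 11.8 and 0.85, and AT1G58400 had 0.49, 8.15 and 0. The first pair was thus highest in seedling and the other pair in root. Defensin, thionin, lipid-transfer and CAP genes, which encode small secreted peptides and proteins of defence, gave 5 of 110, namely AT1G66100, AT2G24615, AT4G07820, AT4G22212 and AT4G22610, the last with 9.85 RPKM in the Col-0 root and 0 in the other 5 libraries. Terpenoid synthase genes gave 2 of 19, AT4G20230 with 10.1 RPKM and AT3G32030 with 7.57 RPKM in the Col-0 root. Phloem protein 2 genes gave 2 of 14, P450 genes 2 of 141 without the left-out pair, and lectin or receptor-like genes 2 of 152, AT1G60095 and AT4G00955. The immune receptor count does not hold RPM1, which was left out by name. Transporter or channel genes gave 1 of 343 and ubiquitin or ubiquitin ligase genes 1 of 464. None of 112 F-box, 89 UDP-glycosyltransferase, 46 glutathione transferase, 342 protease or inhibitor, 49 GDSL lipase or 80 peroxidase genes was among the 62. Nor was a MADS-box gene (38 with at least 5 RPKM in Col-0) other than the left-out MAF3. MAF3 had 21.3 RPKM in the Col-0 floral bud and at most 0.147 in Can-0. With 0.357 per 100 over all features, these absences lie near the overall share. These counts are small and were not tested.

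The other genes of these families, which the rule did not choose, were compared between the accessions with limma on log2(RPKM + 1) over all 20830 genes tested, with the 3 tissues standing in for replicates. Over all genes, 0.403% were called higher and 0.557% lower in Can-0 at a Benjamini-Hochberg adjusted p under 0.05. Of the 144 other immune receptor genes tested, 1 was called higher and 2 lower. An unadjusted p under 0.05 was found for 42 of the 144, a larger share than the 17.2% of all genes tested. Of the 1322 other genes without an assigned function, 15 were called in each direction. Limma called 0 of 183 other P450 genes, 0 of 27 terpenoid synthase genes, 0 of 121 peptide genes, 0 of 18 phloem protein genes and 0 of 225 lectin or receptor-like genes. At an unadjusted p under 0.05 these families had 24, 3, 5, 1 and 49 genes in that order. Only the last share was above the same 17.2%. The median difference between Can-0 and Col-0 on the log2(RPKM + 1) scale was -0.02 for immune receptors, 0.07 for P450 genes, 0.08 for terpenoid synthases and -0.07 for the peptide genes, beside 0.02 over all genes tested. Other immune receptor genes lower in Can-0 by at least 1 on that scale made up 21.8%, 14.1% and 21.5% (seedling, root, floral bud). Over all genes these shares were 4.23%, 4.42% and 3.63%. Those higher by at least 1 made up 8.4%, 7.81% and 14%, beside 4.78%, 3% and 3.87% of all genes. High shares of lower genes were not particular to immune receptors. Of the other peptide genes, 14.3%, 21.5% and 18.5% were lower and 12.5%, 12.3% and 16.7% higher. Of the other phloem protein genes, 25%, 12.5% and 6.25% were lower and 8.33%, 6.25% and 6.25% higher. Of the MADS-box genes, 28.6%, 25% and 15.2% were lower and 17.9%, 7.14% and 6.52% higher. Of the other lectin or receptor-like genes, 3.78%, 5.32% and 4.47% were lower and 13.5%, 8.51% and 12.3% higher.

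The remaining genes were also spread over many functions. AT1G51270 (vesicle-associated protein family), AT1G51520 and AT4G10070 (RNA-binding proteins), AT4G20480 (putative endonuclease or glycosyl hydrolase), AT1G58150, AT3G47675, AT4G39925, AT5G20450 and AT5G37440 (a DnaJ chaperone) had their highest Col-0 values between 5.08 RPKM (AT1G58150) and 17.6 RPKM (AT4G20480). AT5G09710, with 1.43, 0.582 and 5.5 RPKM in Col-0, is annotated as a transcribed pseudogene and was the only one of the 62 that is not protein coding.

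The thresholds fell within a continuous range of values. The genes closest above 5 RPKM were AT1G58150 (5.08 RPKM in its highest Col-0 tissue), AT1G51270 (5.13), AT1G44740 (5.19), AT5G20450 (5.21) and AT5G37440 (5.32). Just below it, with the Can-0 values at 0 in all tissues, were AT1G48953 (4.96 RPKM), AT5G26622 (4.96), the P450 genes CYP71B38 (4.87) and CYP82C2 (4.77), and AT3G24929 (4.77). The highest Can-0 values inside the rule were 0.194 RPKM for AT1G51270, 0.155 for ARGAH2, 0.151 for AT2G14285, 0.15 for AT4G22212 and 0.129 for TIP2;3. Just outside it were AT5G25010 (0.203 RPKM in Can-0), AT1G29500 (0.207), AT3G26240 (0.211), AT5G54040 (0.219) and the kinase gene WNK9 (0.24). Without the Col-0 root library 36 genes met the rule.

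The genes lay on chromosomes 1 to 5 in numbers of 14, 7, 8, 19 and 14. Chromosome 4 held 30.6% of them and 15.3% of all features with at least 5 RPKM in Col-0. Counting in gene order of the reference annotation, 14 of the 62 had another of them within 5 positions, in 6 groups. The largest group lay on chromosome 4 and held AT4G09200, AT4G09260, AT4G09300 and AT4G09310, which code for SPRY-domain or LisH and RanBPM-domain proteins and 1 uncharacterized protein. AT4G09200 had 7.13, 9.75 and 16 RPKM and AT4G09310 had 5.7, 10.5 and 15.7 in Col-0, and both were listed at 0 in Can-0. The near equality of this pair has a limit, since their transcripts are near-identical and the authors' assignment of shared reads is not given. AT4G09260 had 0.475, 6.17 and 1.51 RPKM in Col-0 and 0.0972 in the Can-0 floral bud. Between them, AT4G09210 had 0, 0.95 and 0.282 RPKM in Col-0 and 0 in Can-0, and AT4G09250 was listed at 0 in all 6 libraries. Next to the group, NDPK1, a nucleoside diphosphate kinase gene, had 561, 677 and 622 RPKM in Col-0 and 423, 552 and 424 in Can-0. On the other side, AT4G09190 was barely read, with 0, 0 and 0.456 RPKM in Col-0 and 0.438, 0.152 and 0.392 in Can-0. FBH2, the gene beyond it, had 20.3, 34.9 and 41.1 RPKM against 24.2, 41.1 and 41.2. NDPK1 and FBH2 were thus read in every library.

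On chromosome 5, PP2-A8 and PP2-A6 stood side by side, with 47.6 and 10.7 RPKM in the Col-0 root and 0 in every Can-0 library. The next gene, PP2-A7, had 0, 2.12 and 0 RPKM in Col-0 and 0 in Can-0, and so fell short of the 5 RPKM minimum. The phloem protein array thus had 3 adjacent genes listed at 0 in Can-0, while AT5G45060 on the other side had 8.25, 4.55 and 4.61 RPKM in Col-0 and 6.28, 5.99 and 5.33 in Can-0. On chromosome 3, AT3G18530 and AT3G18535, the latter named for a tubulin-tyrosine ligase and at 7.46, 11.4 and 17.1 RPKM in Col-0, were adjacent. Next to AT3G18535, BRC1, a repressor of branching, had 3 RPKM in the Col-0 floral bud and 0.334 in that of Can-0. Also on chromosome 3, the TPR-like genes AT3G60960 (7.83, 7.12 and 8.71 RPKM in Col-0) and AT3G60980 (4.46, 6.54 and 3.84) were listed at 0 in Can-0, with AT3G61010 close by at 12.4, 10 and 13.2 RPKM in Col-0 and 0, 0.245 and 0.0212 in Can-0. AT3G61010 missed the rule only in the Can-0 root, and its difference of -3.56 on the log2(RPKM + 1) scale passed limma (Benjamini-Hochberg adjusted p = 0.0131), a call lost without the Can-0 or the Col-0 floral bud library (adjusted p = 0.125 and 0.133). AT4G07820 and AT4G07825 were adjacent on chromosome 4, between genes listed at 0 in all 6 libraries. GLP9 and APS3 lay 5 positions apart, with genes read in both accessions between them, such as NRPE7, a polymerase subunit gene, at 5.96, 6.06 and 6.68 RPKM in Col-0 and 10.5, 7.18 and 7.97 in Can-0.

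Within 5 positions of the 62 genes there were 348 other genes with at least 1 RPKM in a Col-0 library. Of them 8, or 2.3%, had at most 0.2 RPKM in all Can-0 libraries, beside 1.09% of all 21170 such features. The 1.09% includes the 62 genes themselves, which the 2.3% leaves out. Besides PP2-A7 the 8 genes were AT2G14070, AT2G14160, AT2G14378, AT3G32040, AT3G32047, AT4G08869 and AT5G09720. AT3G32040 lies next to the terpenoid synthase gene AT3G32030 and had 0.0359, 4.34 and 0 RPKM in Col-0 and 0 in Can-0. AT4G08869, next to ARGAH2, had 2.48 RPKM in the Col-0 floral bud alone.

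**Figure D3:**
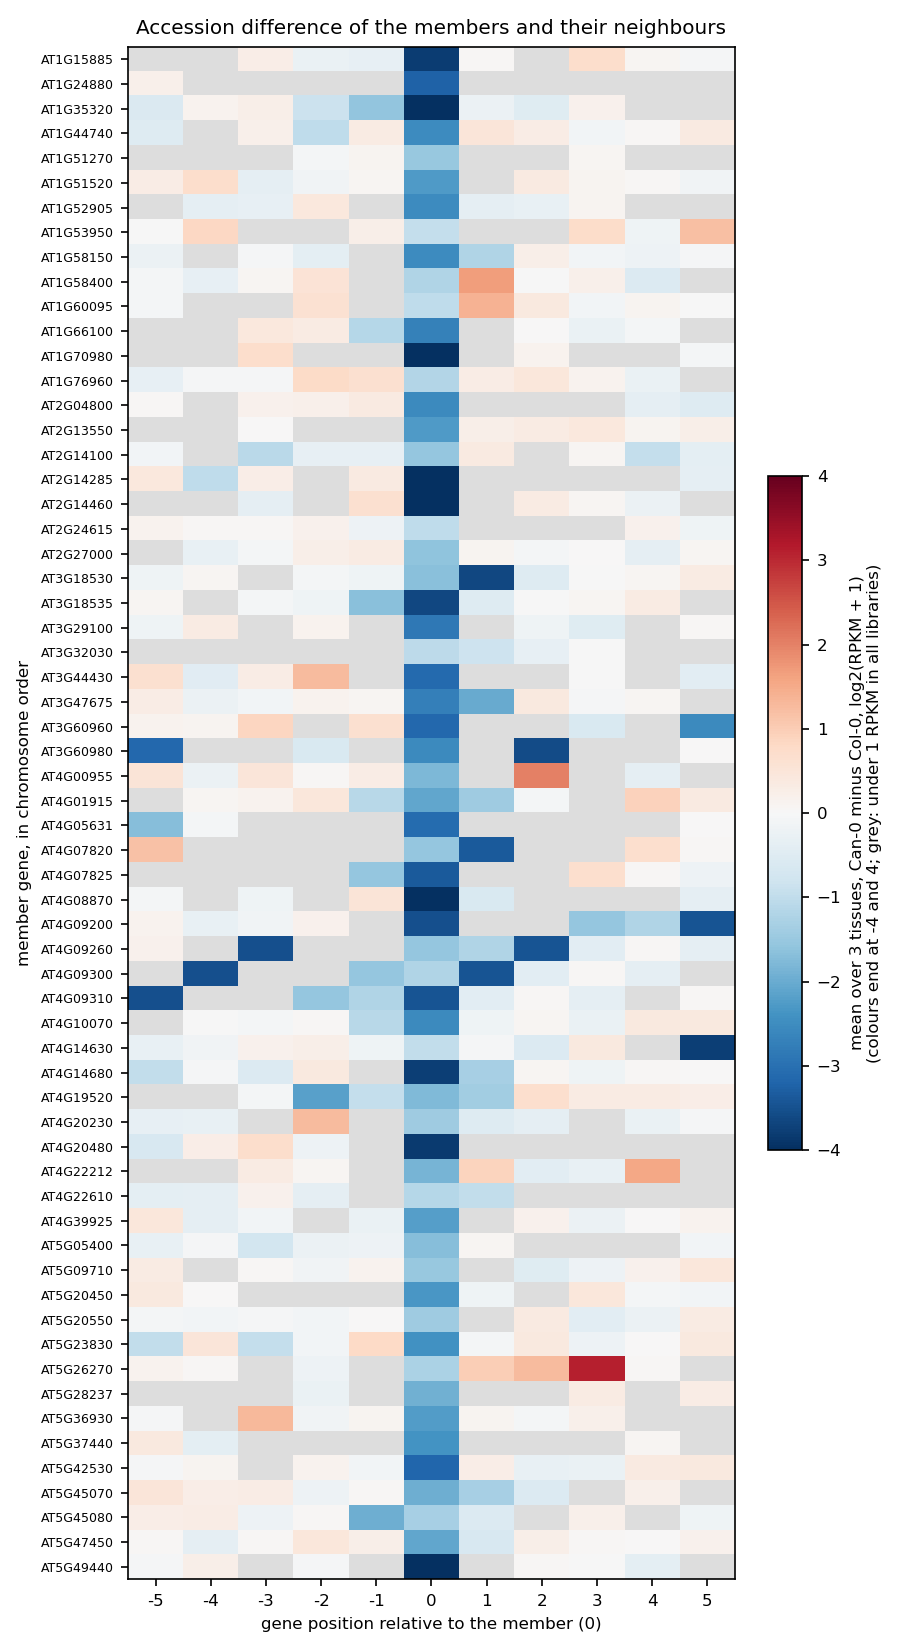
Difference between the accessions (Can-0 minus Col-0, mean over 3 tissues, log2(RPKM + 1)) for each of the 62 genes (position 0) and the 5 genes on each side in annotation order, with grey for genes under 1 RPKM in all libraries and colours ending at -4 and 4. The column at position 0 is blue by the choice of genes, the dark blue squares off it are mostly neighbours that are themselves among the 62 or AT3G61010, and most other squares are pale.

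The map of neighbouring genes gives means over tissues, and its pale squares include differences of 1 on the log2(RPKM + 1) scale. The nearest gene outside the 62 on each side gave 114 genes, of which 54 could be tested. At a Benjamini-Hochberg adjusted p under 0.05, limma called 1 of the 54 lower and 0 higher in Can-0. Over all genes, 0.96% were called in either direction. An unadjusted p under 0.05 was found for 17 of the 54, a larger share than the 17.2% of all genes. The median difference of the 54 was 0.05 on the log2(RPKM + 1) scale. The called gene was AT3G47680, annotated as a DNA-binding protein and next to AT3G47675. AT3G47680 had 7.38, 15.2 and 21 RPKM in Col-0 and 1.84, 1.88 and 4.61 in Can-0, so the accessions did not overlap. The difference was -2.01 ± 0.21 (empirical Bayes SE of the limma fit), with a limma adjusted p of 0.0448. That call was lost without any 1 of the 6 libraries, with adjusted p from 0.0576 to 0.233.

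Within single tissues, where no test was possible, flanking genes were counted that were lower in Can-0 by at least 1 on the log2(RPKM + 1) scale. They were 8 of 39 in seedling, beside 4.23% of all genes, 8 of 51 in root, beside 4.42%, and 8 of 47 in floral bud, beside 3.63%. Flanking genes higher by at least 1 were 1 of 39 in seedling, beside 4.78%, 7 of 51 in root, beside 3%, and 6 of 47 in floral bud, beside 3.87%. The shares of flanking genes in root and floral bud were thus above those of all genes in both directions. MLP168, of the major latex protein family, lies next to AT1G35320 and had 4.13, 0.502 and 2503 RPKM in Col-0 against 0.348, 0 and 530 in Can-0. AT1G66090, a TIR-NBS gene beside the thionin gene AT1G66100, had 11.4 RPKM in the Col-0 seedling and 1.21 in that of Can-0. ELIP2, an early light-induced protein gene next to APS3, had 11.2, 28.9 and 90.6 RPKM in Col-0 and 1.99, 11.8 and 54.4 in Can-0. These genes were lower in Can-0 but still read there. AT4G19530, a TIR-NBS-LRR gene beside AT4G19520, had 28, 0.372 and 2.29 RPKM in Col-0 against 4.56, 0.0223 and 0.266 in Can-0. AT4G19510, on the other side, had 12.2, 5.43 and 12.1 RPKM against 7.45, 5.25 and 1.96. Both neighbours of AT4G19520 were thus lower in Can-0 in seedling and floral bud, and AT4G19520 itself is low by the choice of genes. The accession difference of neither neighbour was called by limma (adjusted p = 0.207 and 0.36). In the opposite direction, the defensin-like gene AT4G22214, next to AT4G22212, had 11 RPKM in the Col-0 root and 73.3 in that of Can-0. AT5G26280, a TRAF-like gene next to AT5G26270, had 603 RPKM in the Col-0 root and 1740 in that of Can-0.

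Near-identical copies affect how reads are assigned, and 7 of the 62 genes, 11.3%, shared at least 50% of their transcript with another one at 95% identity or above, beside 2.03% of all features with at least 5 RPKM in Col-0. They were AT1G24880 (LpxC2), AT1G52905, AT3G32030, AT3G47675, AT4G09200, AT4G09260 and AT4G09310. Their Col-0 values may hold reads of the copies, so their levels are uncertain. Among the 5 genes with an LpxC symbol, LpxC2 had 6.6, 7.5 and 12 RPKM in Col-0 and LpxC3 had 1.98, 2.27 and 4.77. LpxC1, LpxC4 and LpxC5 were listed at 0 in Col-0, and all 5 were listed at 0 in Can-0. Whether LpxC2 holds reads of other genes was not tested. LpxC3 was not called by limma (difference -1.94, adjusted p = 0.0595).

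A protein of at least 50% identity over at least 50% of both sequences, outside the 62, was found for 33 of them, giving 32 distinct closest paralogs. Of the 19 that could be tested, limma called 0 in either direction at a Benjamini-Hochberg adjusted p under 0.05, beside 0.96% of all genes. An unadjusted p under 0.05 was found for 6 of the 19, a larger share than the 17.2% of all genes. The median difference was 0.1 on the log2(RPKM + 1) scale. For the broadly read enzymes, the paralog was read at similar levels in both accessions. ARGAH1, the second arginase of Arabidopsis, had 17.8, 28.2 and 26 RPKM in Col-0 and 18.3, 34.6 and 26.4 in Can-0. ARGAH1 was thus read in all 3 Can-0 tissues, where ARGAH2 had only traces. SYNC1, a further asparaginyl-tRNA synthetase, had 71.5, 73.9 and 70.9 RPKM in Col-0 and 83.8, 70.2 and 74.4 in Can-0, and so exceeded SYNC3 in every Col-0 tissue. APS1 had 240, 150 and 74.4 RPKM in Col-0 and 247, 113 and 78.3 in Can-0. The ATP sulfurylases APS1, APS2 (AT1G19920) and APS4 were each read in all 6 libraries. SGR4, also called VTI11 and required for shoot gravitropism, had 130, 295 and 200 RPKM in Col-0 and 164, 255 and 164 in Can-0. VTI1B, a further VTI gene but not the closest paralog, had 32, 72.4 and 62.5 RPKM in Col-0 and 26.3, 33.4 and 33.2 in Can-0. It was thus lower in every Can-0 tissue but not called (difference -0.753, limma adjusted p = 0.171). RUXF, whose protein aligned to that of AT2G14285 at 100% identity, had 97 to 104 RPKM in Col-0 and 96.2 to 108 in Can-0.

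**Figure D4:**
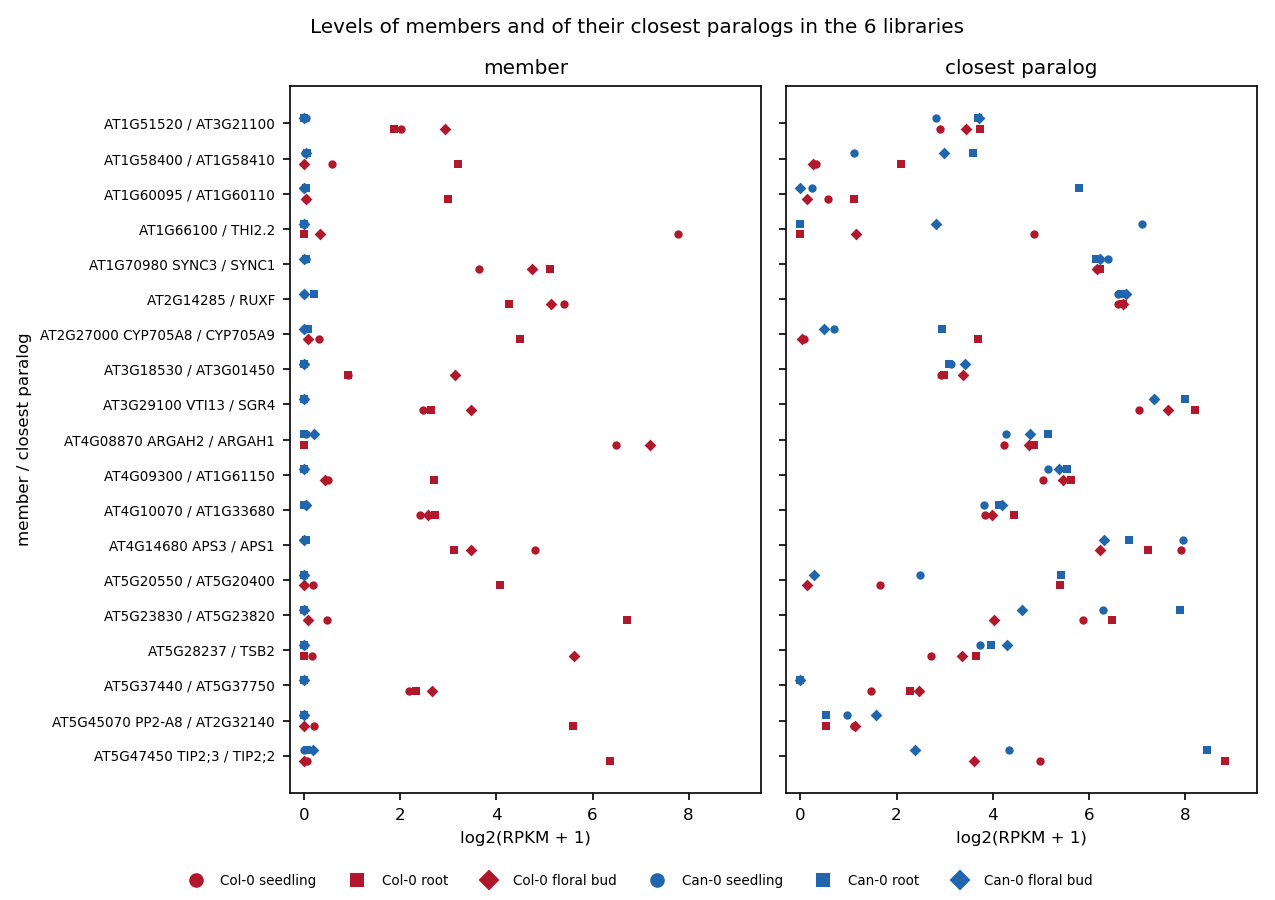
log2(RPKM + 1) in the 6 libraries for genes of the 62 (left) and the closest paralog of each (right), for the 19 pairs whose paralog was tested, with red for Col-0, blue for Can-0, and circles, squares and diamonds for seedling, root and floral bud. The blue points lie at or near 0 on the left by the choice of genes, while on the right they lie among the red points for most pairs, and AT5G37750 is at 0 in all 3 Can-0 libraries.

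The plot of closest paralogs shows some pairs that differ from this picture. AT5G37750, at 92% protein identity to the DnaJ gene AT5G37440, had 1.76, 3.83 and 4.52 RPKM in Col-0 and was listed at 0 in Can-0. Its difference was -2.07 ± 0.24 (empirical Bayes SE of the limma fit), with a limma adjusted p of 0.0554. The limma adjusted p passed 0.05 with a pseudocount of 0.1 (0.0185), quantile normalization (0.0224) or median-centring (0.0472). Over all alternatives it ranged from 0.0185 to 0.265. THI2.2, the thionin closest to AT1G66100, had 28.1, 0 and 1.22 RPKM in Col-0 and 138, 0 and 6.04 in Can-0, which is higher in both shoot tissues of Can-0 but was not called (difference 1.31, limma adjusted p = 0.27). TIP2;2 had 30.4, 459 and 11.1 RPKM in Col-0 and 19.3, 349 and 4.25 in Can-0, lower in all 3 tissues of Can-0 and likewise not called (difference -0.75, limma adjusted p = 0.17). TSB2, a tryptophan synthase subunit gene and the closest paralog of AT5G28237, had 5.58, 11.6 and 9.35 RPKM in Col-0 and 12.3, 14.7 and 18.7 in Can-0 (difference 0.76, limma adjusted p = 0.161). AT5G23820, next to AT5G23830 and 72.7% identical to it, had 58.2, 88.4 and 15.2 RPKM in Col-0 and 77.8, 237 and 23.4 in Can-0 (difference 0.8, limma adjusted p = 0.197). AT1G58410, next to AT1G58400 and 69.5% identical to it, had 0.252, 3.28 and 0.203 RPKM in Col-0 and 1.18, 11.1 and 6.99 in Can-0 (difference 1.68, limma adjusted p = 0.166). AT1G60110, the neighbour and paralog of the lectin gene AT1G60095, had 1.18 RPKM in the Col-0 root and 54.2 in that of Can-0. Of the 10 closest paralogs within 5 positions of their counterpart among the 62, 4 were higher and 3 lower in the Can-0 root than in the Col-0 root, and 3 were listed at 0 in both. The 4 higher ones were AT1G58410, AT1G60110, AT5G23820 and AT4G20200, the last barely read, with 0 RPKM in the Col-0 root and 0.289 in that of Can-0. The 3 lower ones were CYP705A9, LCR85 (0.846 RPKM in Col-0 and 0.167 in Can-0) and AT4G09210 (0.95 and 0). Some of the other closest paralogs were themselves barely read: AT1G06810, AT3G30160, LCR85 and AT3G32047, those of AT4G20480, AT1G35320, AT4G22212 and CYP705A13, had at most 1.37 RPKM in any library.

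The families of some of these genes were followed gene by gene. Of 24 genes with a CYP705A symbol, 2 are among the 62 and 1, CYP705A5, was left out by name at 353 RPKM in the Col-0 root and 0.0981 in that of Can-0. Of the other 21, 18 were tested, 0 were called by limma in either direction and 3 had an unadjusted p under 0.05, for which the share over all genes was 17.2%. In root, 13 of the 21 had at least 5 RPKM in both accessions, among them CYP705A33, with 45.9 RPKM in Col-0 and 47.8 in Can-0. CYP705A9, the closest paralog of CYP705A8 and its neighbour, had 11.9 RPKM in the Col-0 root and 6.67 in that of Can-0. CYP705A27 went furthest down, with 17.3 RPKM in the Col-0 root and 0.946 in that of Can-0 (difference over 3 tissues -1.84, limma adjusted p = 0.189). Of the 15 genes with a PP2-A symbol, 13 are outside the 62, 11 of these were tested, 0 were called by limma and 2 had an unadjusted p under 0.05. This set, taken by symbol, is not the same as the phloem protein family above, which was taken by product name. PP2-A13 went furthest down, with 19.1, 21.5 and 16 RPKM in Col-0 and 4.89, 4.31 and 11.9 in Can-0 (difference -1.42, limma adjusted p = 0.179). PP2-A3, like PP2-A8 a root gene, had 16 RPKM in the Col-0 root and 14.8 in that of Can-0. Of the 9 other tonoplast intrinsic protein genes 7 were tested and 0 were called by limma. An unadjusted p under 0.05 was found for 4 of the 7, a larger share than the 17.2% of all genes. TIP4;1, also highest in root, had 89 RPKM in the Col-0 root and 182 in that of Can-0.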

How the data were processed

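The authors deposited 1 table per library with RPKM values, normalized for gene length and library depth per the file headers, for 28775 features. The submitters' processing notes list builds TAIR 9 and TAIR 10 and do not say what each was used for. For the aligner, counter, strand setting and handling of multiply matching reads, no statement is given in the sources used here. Depth was estimated from the step between small RPKM values, of which 36.2% to 49% per library lay within 0.05 of a whole number of reads, so no count test was run.

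The 62 genes, the families and the comparisons were chosen with earlier results of these data known. Named genes are those with at least 20 RPKM in Col-0, those near another of the 62 or in a family with at least 3 of them, those next to a threshold, called flanking genes and paralogs of the highest genes. Other genes, chosen after their values were seen, are further flanking genes, paralogs and family members. Symbols, product names, lengths and gene order came from the RefSeq annotation of TAIR10.1, which held 28009 of the 28775 features and all 62 genes. No coordinates or sequences are printed, because it is not settled which build the values rest on. Similarity was searched with BLAST+ 2.17.0.

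Flanking genes, paralogs and family members were tested in a linear model of log2(RPKM + 1) on accession and tissue (limma 3.58.1, R 4.3.3; trended empirical Bayes, two-sided). Genes reaching 1 RPKM in 2 or more of the 6 libraries were kept, 20830 in all, and p-values were Benjamini-Hochberg adjusted over them. The fit has 2 residual and 2.55 prior degrees of freedom, so its p-values measure how far the accession difference varies between tissues and not between plants, and tissue is confounded with run. In floral bud the accession is confounded with run too, since the Col-0 and Can-0 libraries were in different runs. Alternatives were the thresholds, pseudocount, filter, scaling, trend, neighbour distance, paralog identity and leaving out each library.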

Additional observations from a re-analysis of the deposited data

Results flagged for a closer look

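AT5G36925, an uncharacterized gene next to the immune receptor gene AT5G36930, moved in opposite directions in different tissues. It had 3.06 RPKM in the Col-0 seedling and 0.925 in that of Can-0, and 2.54 RPKM in the Col-0 root and 10.2 in that of Can-0. The accession difference on the log2(RPKM + 1) scale was -1.07 in seedling and 1.66 in root, a gap of 2.73. The difference between the tissues was not tested, since there is 1 library for each accession and tissue.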

How the results depend on the processing

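The number of genes depended on the thresholds: 40 were listed at 0 in all Can-0 libraries, 136 met a Col-0 minimum of 2 RPKM and 32 a minimum of 10. With 1 library left out it ranged from 36 (without Col-0 root) to 611 (without Can-0 floral bud), with 498 without Can-0 root, where the rule asks for fewer low values. The tissue classes kept their counts within 1.5 times under tissue shares of 70% and 90% and under upper-quartile scaling. With only the next gene counted, 9 genes instead of 14 had another of the 62 nearby. Limma called 3 flanking genes lower in Can-0 with a pseudocount of 0.1, 0 with a pseudocount of 5, with no filter on low values, with a mean of at least 5 RPKM or without the trend, and 2 with 3 genes on each side. With 1 library left out, 0 to 1 flanking genes were called lower and 0 to 1 higher. Without either floral bud library 0 genes were called over all features. Limma called 1 paralog lower, AT5G37750, with a pseudocount of 0.1, with quantile normalization and with median-centring. Within a tissue, a difference of at least 2 left 4 of 39, 4 of 51 and 2 of 47 flanking genes lower in seedling, root and floral bud. Over all genes these shares were 0.994%, 1.18% and 0.927%. With 3 genes on each side, 13 of 155, 15 of 175 and 15 of 182 were lower by at least 1. These are 8.39%, 8.57% and 8.24%, beside 4.23%, 4.42% and 3.63% of all genes. Both settings were chosen after seeing the data. The causes of these shifts were not tested beyond the construction of each setting. No paired analysis was possible because the groups share fewer than 2 replicate numbers; the fit instead compares the accessions within each tissue. Depth limits the Can-0 values: by reference transcript length, 3 reads correspond to between 0.0252 RPKM (AT4G19520) and 0.5 RPKM (AT1G58150), and a value of 0 allows a level up to that bound.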
